A study of Mus musculus with 36 samples.

Results

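The transcripts of 31 genes of pyruvate oxidation and the TCA cycle were followed in single mouse oocytes at the germinal vesicle (GV) stage, when the fully grown oocyte waits in prophase of the first meiotic division. The genes were taken by name from the pathway, not by their values: the mitochondrial pyruvate carrier, the pyruvate dehydrogenase complex with its kinases and phosphatases, enzymes of the cycle, and 3 enzymes that fill or drain it. All 31 were found among the 21968 genes of the count table. Libraries labelled Drp1_KO came from 18 oocytes of 4 mice (a to d), and libraries labelled Drp1_WT came from 18 oocytes of 5 mice (1 to 5), with 3 to 5 oocytes from each mouse. Dnm1l encodes Drp1, a GTPase that pinches mitochondria apart, and the series title names its depletion in the oocyte. The labels used here state no allele, Cre driver, strain or age, and no treatment that the groups share. The mouse was the replicate throughout.

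A few facts of the libraries bear on what follows. The oocytes had 3178509 to 7406895 counts and 11350 to 14659 detected genes each. All 12 oocyte markers examined (among them Gdf9, Bmp15 and Zp3) had reads, and they summed to 15186 to 35452 CPM (counts scaled to the library total) per oocyte under the Drp1_KO label and 23517 to 38421 CPM under the Drp1_WT label. The 17 granulosa and cumulus markers summed to 50.4 to 113 CPM under the Drp1_KO label and 64.4 to 135 CPM under the Drp1_WT label, with Ptx3 and Tnfaip6 at 0 in every oocyte. Most of that sum was Cyp19a1, at a mean of 61.7 CPM over all mice. The next highest, Inha, averaged 5.89 CPM, and Foxl2 and Amh averaged 0.064 and 0.082 CPM. The level of Dnm1l is a partial check of the labels. It averaged 207 ± 15.8 CPM (SD, n = 4 mice) under the Drp1_KO label. Under the Drp1_WT label it averaged 239 ± 69.2 CPM (SD, n = 5 mice), with an edgeR adjusted p of 0.706. In 5 libraries labelled Drp1_WT (tubes 11 to 15) it lay at 116 to 156 CPM, against 234 to 322 CPM in the other 13, so Dnm1l goes against the label there. Oocytes labelled Drp1_KO ran from 144 to 274 CPM, and 3 of them, in tube 10 of mouse b (274 CPM) and tubes 13 and 14 of mouse c (240.5 and 251 CPM), lay within the range of those 13. The low end of that range was Drp1_WT tube 29 of mouse 5, at 234 CPM, which is among the doubted libraries left out in some alternatives below. The next lowest of the 13 had 254 CPM, so without tube 29 only tube 10 of mouse b lay within the range. Counts of a whole gene cannot show whether part of it is deleted, so the level of Dnm1l does not settle the labels. Every direction below is that of the labels as given. The library of tube 10 of mouse b, labelled Drp1_KO, stood apart with 11350 detected genes and 5.61% of its counts on the 13 genes of the mitochondrial genome, where the next highest oocyte had 0.669%. The 15186 CPM of oocyte markers was also its value, and the next lowest oocyte labelled Drp1_KO had 23707 CPM. So was the 113 CPM of granulosa and cumulus markers. Its markers of immune, endothelial, stromal and epithelial cells summed to 118.5 CPM, where the next highest oocyte had 77.8 CPM. Tube numbers run separately under each label, and tubes 27 to 30 hold just mouse d and mouse 5.

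Pyruvate enters mitochondria through a carrier made of Mpc1 and Mpc2 and is turned into acetyl-CoA by the pyruvate dehydrogenase complex, which kinases switch off and phosphatases switch on. Citrate synthase joins acetyl-CoA to oxaloacetate, and the cycle returns to oxaloacetate while it makes NADH, FADH2 and a nucleoside triphosphate. The mouse oocyte is known for relying on pyruvate, which the surrounding cumulus cells supply, and for a poor capacity to use glucose directly. The question set by the labels is whether these transcripts differ between oocytes with and without Drp1.

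Per kilobase of merged exons, the 31 genes spanned 4 orders of magnitude and Dld and Pdhx, both of the pyruvate dehydrogenase complex, were the highest. Dld, the dihydrolipoamide dehydrogenase that the pyruvate and 2-oxoglutarate dehydrogenase complexes share, averaged 153 ± 19.0 CPM per kb (SD, n = 9 mice). It is ENSMUSG00000020664, on chromosome 12 at 31331277 to 31351453, minus strand (GRCm38). Pdhx, which anchors Dld to the complex, followed with 126 ± 16.9 CPM per kb. The cytosolic and mitochondrial malate dehydrogenases came next, with Mdh1 at 90.7 ± 12.6 and Mdh2 at 64.9 ± 4.34 CPM per kb. Below Ogdh at 6.25 ± 1.11 CPM per kb came a step down to Pdk1 at 1.29 ± 0.25 CPM per kb, and the 6 lowest genes were Pdk1, Pcx, Idh2, Pdk2, Pdp2 and Pdk4. In 8 of the 30 pairs of neighbours in this order the higher gene was higher in all 9 mice, and the other 22 pairs are not separated beyond the spread between mice. The separated neighbours were Dld over Pdhx, Pdhx over Mdh1, Mdh1 over Mdh2, Mdh2 over Sucla2, Pdhb over Idh1, Ogdh over Pdk1, Pdk1 over Pcx, and Pdp2 over Pdk4. By the longest coding transcript and by coding length, Dld was above Pdhx in 8 of 9 mice, and Mdh1 above Mdh2 in 0 and 6 of 9. Ogdh was above Pdk1 in 7 of 9 mice by coding length. The other 5 separations held in all 9 mice by both lengths. The length used matters for most ranks, since merged exons pool the exons of all annotated transcripts. Of the 31 genes, 11 kept their rank by the longest coding transcript and 8 by coding length. The largest shifts were 13 and 14 ranks, with Spearman's rho to the first order of 0.92 and 0.90. With the length of the longest protein-coding transcript, Mpc2 moved to rank 7 in place of 20, Dlst to 14 in place of 22, and Mdh2 passed Mdh1, while the 6 lowest genes were the same.

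**Figure D1:**
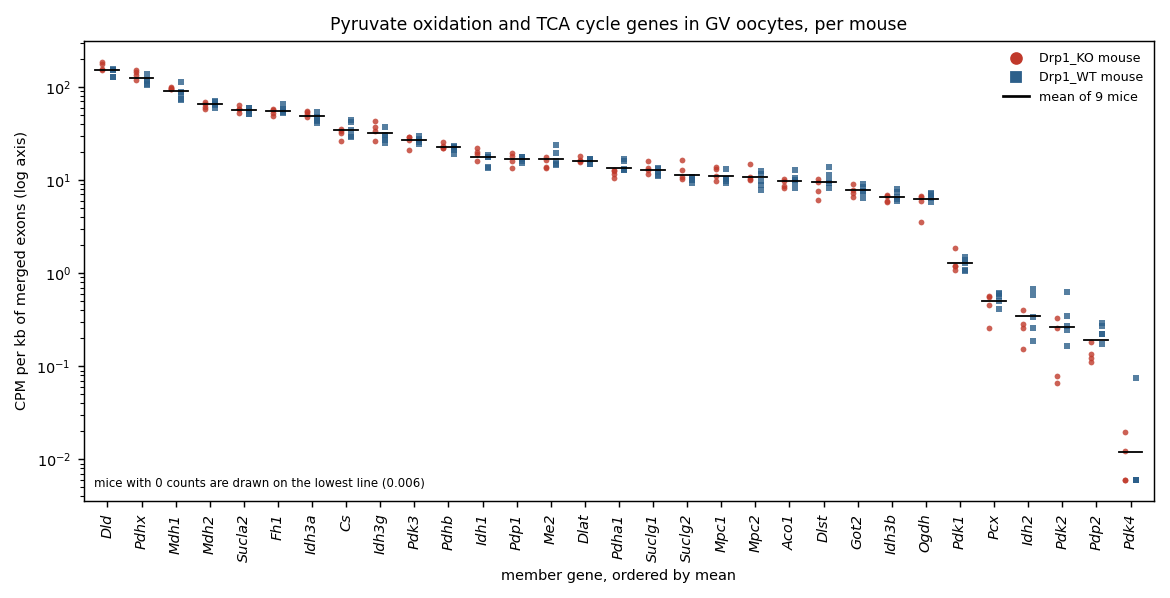
Level of each of the 31 genes in CPM per kb of merged exons (log axis), with circles for the 4 mice labelled Drp1_KO, squares for the 5 mice labelled Drp1_WT and a line for the mean of all 9. The mice of the 2 labels lie together at each gene, between 153 CPM per kb for Dld and 6.25 for Ogdh, before the drop to the 6 lowest genes.

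Between the labels, none of these genes passed the test across the transcriptome. Of the 31 genes, 30 had enough counts to be tested (Pdk4 did not), and 0 of 30 had an edgeR adjusted p under 0.05, where 2 of all 12812 genes tested did (0.0156%). The lowest adjusted p among them was 0.499 (Pdp2) and the highest 0.971 (Pdp1). At an unadjusted p under 0.05 there was 1 gene higher under the Drp1_KO label (Suclg2) and 1 lower (Pdp2), against 4.89% of all genes tested higher and 4.81% lower, so their number is about that of the background. DESeq2 called 0 of the 30 (0.305% of all genes) and limma-voom on single oocytes called 0 of the 30 (0.0702%). The log2 fold changes of the 30 genes ran from -0.85 (Pdk2) to 0.31 (Suclg2), with 15 above 0 and 15 below. Their median was -0.0021, beside -0.0032 over all genes tested. In 0 of the 30 genes did every mouse labelled Drp1_KO lie above every mouse labelled Drp1_WT (1.27% of all genes), and in 0 did every one lie below (1.29%). Together the 31 genes took 0.342 ± 0.0215% of an oocyte's counts under the Drp1_KO label and 0.345 ± 0.0135% under the Drp1_WT label (SD, n = 4 and 5 mouse means). On simulated data made from these mice, edgeR recovered 46.3% of 67 genes changed 1.5-fold and 95.5% of 67 changed 2-fold. The genes changed there all had levels above those of Pdk2, Pdp2, Idh2 and Pcx, and 170 calls were made. With the 2 calls of the real data the adjusted threshold is stricter, so these shares overstate the recovery here, by an amount not measured. A change under 2-fold would often have been missed, and a 2-fold change could have been.

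**Figure D2:**
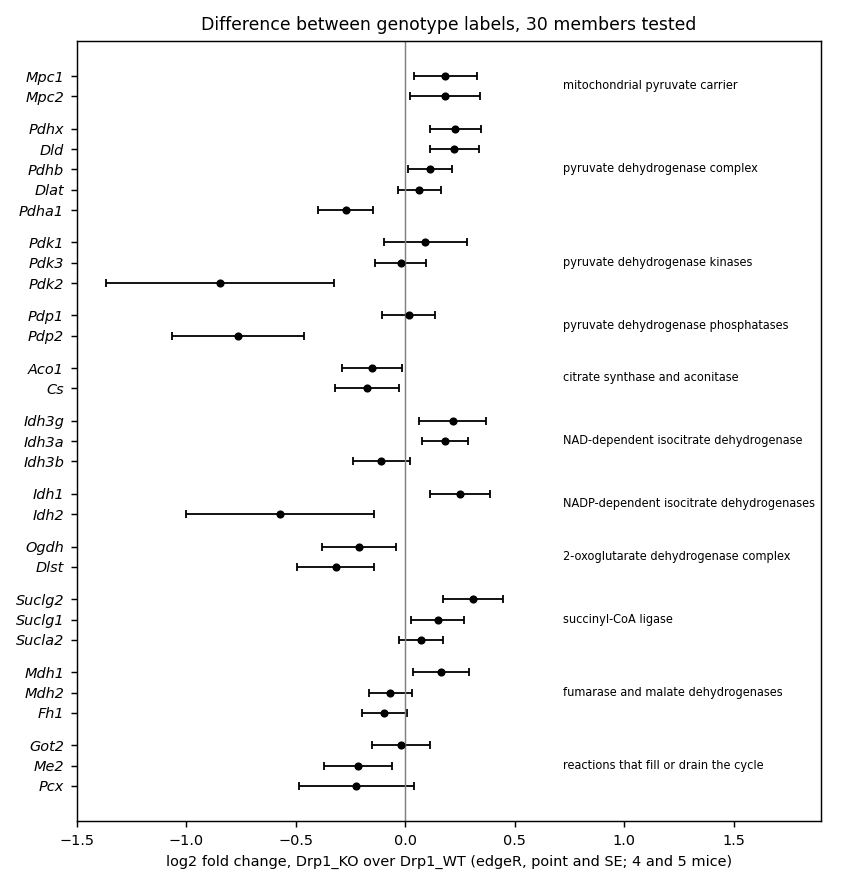
Log2 fold change of the 30 genes tested, Drp1_KO over Drp1_WT, as points grouped by step of the pathway (4 and 5 mice). Bars are standard errors derived from the F value of the edgeR test. All points but those of Pdk2, Pdp2 and Idh2, which have few reads, lie between -0.32 and 0.31.

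Mpc1 and Mpc2 form the carrier of the inner mitochondrial membrane, and neither works alone. Mpc1 stood at 20.2, 28.7, 23.3 and 27.3 CPM in mice a to d labelled Drp1_KO, against 19.3, 20.2, 21.3, 21.4 and 27.2 CPM in mice 1 to 5 labelled Drp1_WT. Mpc2 stood at 80.2, 73.6, 74.6 and 108 CPM in mice a to d, against 64.6, 84.6, 71.8, 57.3 and 92.2 CPM in mice 1 to 5. In both groups the mouse of tubes 27 to 30 was among the highest for both genes. The log2 fold changes were 0.18 (SE 0.15) for Mpc1 and 0.18 (SE 0.16) for Mpc2, with edgeR adjusted p of 0.649 and 0.683. Without tube 10, Drp1_WT tubes 11 to 15 and Drp1_WT tube 29 the value of Mpc1 was -0.03, and that of Mpc2 0.05. Without Drp1_WT tubes 11 to 15 alone Mpc2 was at 0.019, with limma-voom at 0.031 and without mouse d at 0.039. Per kb of the longest coding transcript Mpc1 lay below Mpc2 in all 9 mice (0.32 times its level), but per kb of merged exons the pair was not separated (1.04 times), so their balance depends on the length used.

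In the pyruvate dehydrogenase complex, the catalytic subunits Pdha1 and Pdhb and the acetyl-carrying core Dlat were far below Dld and Pdhx per kb. Per kb of merged exons Dld was 11.5 times Pdha1 (7.83 to 16.5 times over the 9 mice) and Pdhx was 7.76 times Dlat (6.39 to 9.39 times). With the longest coding transcript as the length these folds were 12.7 and 10.0. Dld stood at 689, 568, 555 and 642 CPM in mice a to d, against 555, 475, 557, 467 and 572 CPM in mice 1 to 5. The groups overlap, since mouse c lay below mice 3 and 5. edgeR gave Dld a log2 fold change of 0.22 (SE 0.11, adjusted p = 0.523), which was 0.12 without Drp1_WT tubes 11 to 15.

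Pdhx stood at 524, 592, 463 and 571 CPM in mice a to d, against 413, 419.6, 463, 449.8 and 548 CPM in mice 1 to 5, with mouse 5 above 2 of the 4 mice labelled Drp1_KO. Its log2 fold change was 0.23 (SE 0.12, edgeR adjusted p = 0.527), or 0.11 without tube 10, Drp1_WT tubes 11 to 15 and Drp1_WT tube 29. Pdha1, the subunit that the kinases phosphorylate, stood at 48.3, 43.8, 47.1 and 39.4 CPM in mice a to d, against 63.6, 48.997, 48.4, 60.5 and 48.04 CPM in mice 1 to 5. Mice 1 and 4 were the high ones, and mouse a lay just above mouse 5. edgeR gave Pdha1 a log2 fold change of -0.27 (SE 0.13, adjusted p = 0.514), which was -0.14 without tube 10, Drp1_WT tubes 11 to 15 and Drp1_WT tube 29. Pdhb averaged 90.2 ± 5.71 CPM under the Drp1_KO label and 83.3 ± 6.27 CPM under the Drp1_WT label, and Dlat 81.1 ± 5.01 and 77.6 ± 4.94 CPM (SD, n = 4 and 5).

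Among the kinases that switch the complex off, Pdk3 held most of the transcripts. Per kb, Pdk3 made up 94.6 ± 0.849% of the kinase transcripts under the Drp1_KO label and 94.4 ± 0.931% under the Drp1_WT label (SD, n = 4 and 5), with single mice between 92.8% and 95.3%. Pdk1 made up 4.77 ± 1.15% and 4.39 ± 0.537% in the same order of labels, and Pdk2 0.627 ± 0.408% and 1.19 ± 0.704%. By the longest coding transcript the share of Pdk3 in single mice ran from 91.4% to 94.4%. By coding length Pdk3 made up 86.6 ± 2.39% and 86.8 ± 1.59% (83.2% to 88.9% in single mice) and Pdk1 12.6 ± 2.77% and 11.7 ± 1.33%, again with the Drp1_KO label first. Pdk4, the isoform that fasting induces in muscle, had 11 counts in all: 3 counts in 2 oocytes labelled Drp1_KO and 8 counts in 3 oocytes of mouse 3 labelled Drp1_WT. In the other 31 oocytes it had 0 counts, which at their depths allows up to 0.405 to 0.944 CPM (3 counts, counting error only).

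The proximal promoters of the 4 kinase genes are shown because their transcripts lie so far apart. Each line gives the RefSeq bases before the start on GRCm38.p6, 5′ to 3′ in the direction of the gene and up to 250 bases, without bases that GENCODE M21 counts in the gene. Capitals mark the CCAAT box (CCAAT, or ATTGG on the other strand) and the GC box (GGGCGG, or CCGCCC on the other strand), which do not overlap here.
Pdk3, chrX:93832202-93832400, minus strand: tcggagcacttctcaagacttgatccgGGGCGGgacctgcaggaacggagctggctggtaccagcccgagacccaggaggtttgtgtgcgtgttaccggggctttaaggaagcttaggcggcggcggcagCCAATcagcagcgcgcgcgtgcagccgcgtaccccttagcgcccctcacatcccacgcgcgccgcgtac
Pdk1, chr2:71872974-71873223, plus strand: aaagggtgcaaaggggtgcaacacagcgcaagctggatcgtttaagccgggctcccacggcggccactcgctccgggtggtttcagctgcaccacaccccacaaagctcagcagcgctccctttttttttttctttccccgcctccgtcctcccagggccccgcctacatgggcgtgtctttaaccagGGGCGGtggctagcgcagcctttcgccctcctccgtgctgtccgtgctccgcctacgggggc
Pdk2, chr11:95041372-95041621, minus strand: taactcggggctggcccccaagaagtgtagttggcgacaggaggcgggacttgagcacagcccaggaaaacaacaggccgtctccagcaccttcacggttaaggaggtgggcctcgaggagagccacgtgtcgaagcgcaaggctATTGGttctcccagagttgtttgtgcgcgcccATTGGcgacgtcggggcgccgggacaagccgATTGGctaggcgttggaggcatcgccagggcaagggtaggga
Pdk4, chr6:5496310-5496528, minus strand: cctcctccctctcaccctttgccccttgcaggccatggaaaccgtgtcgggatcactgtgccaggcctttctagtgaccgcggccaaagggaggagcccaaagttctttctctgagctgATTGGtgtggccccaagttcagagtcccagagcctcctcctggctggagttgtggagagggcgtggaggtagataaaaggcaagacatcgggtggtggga
Pdk3 holds 1 CCAAT box, 1 GC box and 22 CpG in its 199 bases. Pdk4 holds 1 CCAAT box, 0 GC boxes and 6 CpG in its 219 bases, and 6 CpG in 250 bases is the lowest of the genes with a sequence. Pdk1 holds 1 GC box and Pdk2 holds 3 CCAAT boxes, with 19 CpG each in 250 bases. These are matches of letters in a window, not sites shown to be used.

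Across mice, Pdk3 (ENSMUSG00000035232, GRCm38 chromosome X, 93764607 to 93832201, minus strand) stood at 73.5, 69.1, 74.5 and 54.4 CPM in mice a to d, against 75.3, 62.97, 66.3, 70.5 and 69.1 CPM in mice 1 to 5. Mouse d was the lowest of the 9. edgeR gave Pdk3 a log2 fold change of -0.02 (SE 0.12, adjusted p = 0.959), and its sign turned under 4 of the alternatives. Pdk1 stood at 9.29, 14.3, 9.34 and 8.41 CPM in mice a to d, against 11.6, 9.91, 8.35, 10.7 and 8.13 CPM in mice 1 to 5. The high value of mouse b came with tube 10, at 26.8 CPM, while its other 4 oocytes lay at 8.45 to 14.1 CPM. With all libraries the log2 fold change of Pdk1 was 0.09 (SE 0.19, edgeR adjusted p = 0.867), and without tube 10 it was -0.03. Pdk2 had 57 counts over the oocytes labelled Drp1_KO, at 1.05, 0.209, 0.809 and 0.246 CPM in mice a to d, and 116 counts over those labelled Drp1_WT, at 0.775, 1.98, 1.085, 0.524 and 0.860 CPM in mice 1 to 5. The groups overlap, and edgeR gave Pdk2 a log2 fold change of -0.85 (SE 0.52, adjusted p = 0.574), which was -1.28 without mouse a and -0.50 without mouse 2.

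The phosphatases that switch the complex back on were also uneven. Pdp1 was 86.8 times Pdp2 per kb of merged exons (53.9 to 145 times over the 9 mice). By the longest coding transcript it was 93.1 times, and by coding length 61.3 times. Pdp2 (ENSMUSG00000048371, GRCm38 chromosome 8, 104591451 to 104599026, plus strand) had the smallest p of all these genes. It had 78 counts over the 18 oocytes labelled Drp1_KO, at 1.05, 0.765, 0.698 and 0.640 CPM in mice a to d, and 147 counts over the 18 labelled Drp1_WT, at 1.27, 1.55, 1.25, 1.68 and 0.977 CPM in mice 1 to 5. Mouse a lay above mouse 5, and the other mice of the 2 labels were apart. The log2 fold change of Pdp2 was -0.76 (SE 0.30, edgeR unadjusted p = 0.0249, adjusted p = 0.499), and it ran from -0.997 to -0.67 over the alternatives, where the lowest adjusted p was 0.270. Single oocytes held 0 to 1.57 CPM under the Drp1_KO label and 0.1502 to 2.69 CPM under the Drp1_WT label, so the difference rests on a few reads per oocyte. Pdp1 averaged 75.9 ± 11.6 CPM under the Drp1_KO label and 75.1 ± 5.15 CPM under the Drp1_WT label (SD, n = 4 and 5), with a log2 fold change of 0.02 (SE 0.12, edgeR adjusted p = 0.971).

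**Figure D3:**
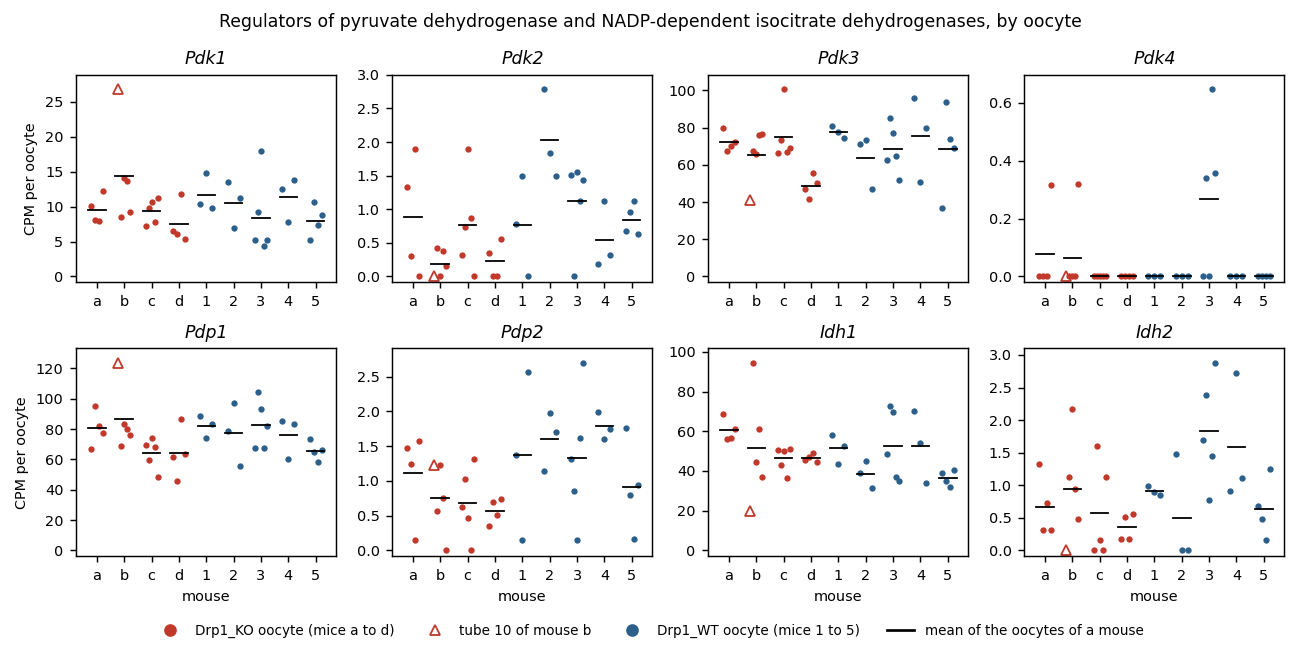
CPM of single oocytes (points) and the mean of each mouse (lines) for the 4 kinases, the 2 phosphatases and the 2 NADP-dependent isocitrate dehydrogenases, with mice a to d labelled Drp1_KO on the left, mice 1 to 5 labelled Drp1_WT on the right, and tube 10 of mouse b as an open triangle. Pdk3, Pdp1 and Idh1 lie well above them in every mouse, while Pdk2, Pdp2 and Idh2 stay under 3 CPM and Pdk4 is at 0 in 31 oocytes.

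In 7 log2 ratios between paralogs or opposing enzymes, computed from the summed counts of each mouse, the one of Pdp1 over Pdp2 separated the labels. It averaged 6.57 ± 0.27 under the Drp1_KO label (6.26 to 6.82) and 5.80 ± 0.29 under the Drp1_WT label (5.39 to 6.09; SD, n = 4 and 5). The difference of 0.77 had an exact two-sided permutation p of 0.0159, the smallest that 126 splits of 9 mice allow. After Benjamini-Hochberg adjustment over the 7 ratios this was 0.111, the lowest value that a lone ratio at that smallest p can reach. A lone ratio could thus not have passed, so the adjusted value cannot decide about Pdp1 over Pdp2. The unadjusted p cannot either, since the 7 ratios were chosen with earlier results of these data known. All 4 mice labelled Drp1_KO lay above all 5 mice labelled Drp1_WT when counts were summed per mouse. Among single genes tested, 1.27% separated in that direction and 1.29% in the other. Pdp1 itself had an edgeR log2 fold change of 0.02 and Pdp2 one of -0.76. The ratio thus largely restates Pdp2 and its few reads. As a mean of oocyte ratios the difference was 0.75, the lowest mouse labelled Drp1_KO (6.412) lay just below the highest labelled Drp1_WT (6.413), and the exact permutation p was 0.0317. Within tubes 1 to 15 the difference was 0.77 with 3 against 4 mice, where the smallest exact permutation p is 0.0571. The ratio of Idh2 over Idh1 differed by -0.74 (exact permutation p = 0.111, adjusted 0.389). For the other 5 the differences ran from -0.25 (Mdh2 over Mdh1) to 0.10 (Pdk1 over Pdk3), with exact permutation p from 0.190 to 0.952. The summed kinases over the summed phosphatases averaged 0.04 ± 0.28 under the Drp1_KO label and 0.06 ± 0.13 under the Drp1_WT label.

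Citrate synthase, which commits acetyl-CoA to the cycle, was 3.49 times the cytosolic aconitase Aco1 per kb of merged exons, 5.87 times by the longest coding transcript and 8.58 times by coding length. Cs stood at 193, 185, 207 and 150.2 CPM in mice a to d, against 254, 199, 169, 243 and 173 CPM in mice 1 to 5. Mice 1 and 4 were the highest and mouse d the lowest, and the groups overlap over most of their range. edgeR gave Cs a log2 fold change of -0.17 (SE 0.15, adjusted p = 0.671), which was -0.088 without mouse d. Aco1 stood at 43.7, 39.1, 45.95 and 36.8 CPM in mice a to d, against 57.9, 44.6, 43.01, 47.7 and 36.9 CPM in mice 1 to 5, with a log2 fold change of -0.15 (SE 0.14, edgeR adjusted p = 0.696) that was -0.048 without all the doubted libraries (tube 10, Drp1_WT tubes 11 to 15 and Drp1_WT tube 29) and -0.28 with limma-voom. Aco1 is the form that also binds iron-responsive RNA elements.

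Isocitrate is oxidised by an NAD-dependent enzyme of the cycle, built from Idh3a, Idh3b and Idh3g, and by the NADP-dependent Idh1 of the cytosol and Idh2 of the mitochondria. The catalytic subunit Idh3a was 7.34 times Idh3b (5.88 to 9.39 times over the 9 mice) and 1.52 times Idh3g per kb of merged exons, the second of these 2.92 times by coding length. Idh3a stood at 272, 262, 244 and 278 CPM in mice a to d, against 222, 217, 243, 209 and 273 CPM in mice 1 to 5. Mouse 5 lay above mice a to c, and the other 4 mice labelled Drp1_WT lay below all 4 labelled Drp1_KO. edgeR gave Idh3a a log2 fold change of 0.18 (SE 0.11, adjusted p = 0.557), which was 0.090 without Drp1_WT tubes 11 to 15 and 0.090 with limma-voom. Idh3g averaged 93.9 ± 18.9 CPM under the Drp1_KO label and 80.7 ± 12.8 CPM under the Drp1_WT label, and Idh3b 21.7 ± 1.92 and 23.4 ± 2.89 CPM (SD, n = 4 and 5), with edgeR adjusted p of 0.613 and 0.760. Where Nop56 overlaps Idh3b on the other strand, reads of the pair cannot be told apart by strand.

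The cytosolic Idh1 was 50.5 times the mitochondrial Idh2 per kb of merged exons, and 27.5 to 124 times in single mice. Their promoters, shown because the pair is so uneven, are given in the same way as those of the kinases.
Idh1, chr1:65186501-65186729, minus strand: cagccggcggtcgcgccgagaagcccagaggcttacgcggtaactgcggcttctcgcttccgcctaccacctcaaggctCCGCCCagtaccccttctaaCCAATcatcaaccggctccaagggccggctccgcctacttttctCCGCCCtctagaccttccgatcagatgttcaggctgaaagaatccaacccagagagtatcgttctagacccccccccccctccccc
Idh2, chr7:80115393-80115600, minus strand: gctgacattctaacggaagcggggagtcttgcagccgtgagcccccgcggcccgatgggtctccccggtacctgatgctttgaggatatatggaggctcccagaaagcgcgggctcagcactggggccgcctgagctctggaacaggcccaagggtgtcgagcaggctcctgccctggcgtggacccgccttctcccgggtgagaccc
Idh1 holds 1 CCAAT box and 2 GC boxes. The stretch of Idh2 holds 0 of either, while its full 250 bases before the RefSeq start, part of which GENCODE M21 counts in the gene, hold both motifs. The 2 windows of 250 bases hold 18 and 17 CpG, so the CpG count does not set them apart.

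Idh1 stood at 61.4, 55.99, 44.7 and 52.3 CPM in mice a to d, against 49.3, 37.8, 51.3, 49.04 and 38.0 CPM in mice 1 to 5, and edgeR gave it a log2 fold change of 0.25 (SE 0.14, adjusted p = 0.546). Idh2 had 73 counts over the oocytes labelled Drp1_KO, at 0.742, 1.04, 0.662 and 0.394 CPM in mice a to d, and 124 counts over those labelled Drp1_WT, at 0.886, 0.482, 1.74, 1.52 and 0.665 CPM in mice 1 to 5. Mice 3 and 4 were the high ones, and mouse 2 lay below 3 of the 4 mice labelled Drp1_KO. edgeR gave Idh2 a log2 fold change of -0.57 (SE 0.43, adjusted p = 0.632), which was -0.29 without mouse 3.

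The 2-oxoglutarate dehydrogenase complex pairs the catalytic Ogdh and the core Dlst with the shared Dld, which was 24.5 times Ogdh per kb of merged exons. Dlst was 1.52 times Ogdh by merged exons and 3.99 times by the longest coding transcript and 6.08 times by coding length, and higher in all 9 mice by each. Dlst stood at 91.4, 73.2, 98.0 and 57.9 CPM in mice a to d, against 131, 88.8, 93.2, 108 and 78.8 CPM in mice 1 to 5. The labels overlap, with mouse 1 the highest and mouse d the lowest. edgeR gave Dlst a log2 fold change of -0.32 (SE 0.17, adjusted p = 0.547), which was -0.19 without mouse d. Ogdh stood at 36.04, 32.7, 37.1 and 19.5 CPM in mice a to d, against 39.7, 31.9, 36.5, 38.8 and 34.6 CPM in mice 1 to 5. Mouse d was far below the other 8, and the log2 fold change of -0.21 (SE 0.17, edgeR adjusted p = 0.657) was -0.041 without mouse d, -0.041 without all the doubted libraries and -0.42 with limma-voom.

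Succinyl-CoA ligase joins the alpha subunit Suclg1 to a beta subunit that makes ATP (Sucla2) or GTP (Suclg2). Per kb of merged exons Sucla2 was 5.04 times Suclg2 (3.17 to 5.65 times over the 9 mice). It was 6.56 times by the longest coding transcript and 4.06 times by coding length. Suclg2 (ENSMUSG00000061838, GRCm38 chromosome 6, 95473009 to 95718800, minus strand) stood at 59.5, 75.6, 47.6 and 50.2 CPM in mice a to d, against 49.5, 43.2, 46.2, 46.1 and 50.2 CPM in mice 1 to 5. Mice a and b were high, and mouse c lay within the range of the mice labelled Drp1_WT. The log2 fold change of Suclg2 was 0.31 (SE 0.14, edgeR unadjusted p = 0.0430, adjusted p = 0.508). In mouse b, tube 10 held 133 CPM, while the other 4 oocytes held 55.1 to 67.7 CPM, and without tube 10 the log2 fold change was 0.20 (edgeR adjusted p = 0.593). Without mouse b it was 0.16. Sucla2 averaged 232 ± 20.2 CPM under the Drp1_KO label and 221 ± 17.2 CPM under the Drp1_WT label, and Suclg1 62.4 ± 8.94 and 56.3 ± 4.99 CPM (SD, n = 4 and 5), with edgeR adjusted p of 0.8002 and 0.663.

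Fumarase (Fh1) hydrates fumarate to malate, and malate dehydrogenase closes the cycle in mitochondria (Mdh2) and serves the malate-aspartate shuttle in the cytosol (Mdh1). Fh1 averaged 183 ± 14.6 CPM under the Drp1_KO label and 195 ± 17.2 CPM under the Drp1_WT label (SD, n = 4 and 5; log2 fold change -0.09, SE 0.10, edgeR adjusted p = 0.741, and -0.22 with limma-voom). Mdh1 stood at 257, 243, 242 and 249 CPM in mice a to d, against 193, 216, 225, 184 and 288 CPM in mice 1 to 5. The 4 mice labelled Drp1_KO lay close together, within the wider range of the 5 labelled Drp1_WT, where mouse 5 was the highest of all. edgeR gave Mdh1 a log2 fold change of 0.16 (SE 0.13, adjusted p = 0.648), which was 0.051 without Drp1_WT tubes 11 to 15 and 0.28 without mouse 5. Mdh2 averaged 225 ± 15.7 CPM under the Drp1_KO label and 236 ± 15.04 CPM under the Drp1_WT label (SD, n = 4 and 5; edgeR adjusted p = 0.801). Mdh1 was 1.40 times Mdh2 per kb of merged exons but 0.69 times by the longest coding transcript and 1.02 times by coding length, so their order depends on the length.

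Pyruvate carboxylase (Pcx) refills oxaloacetate, Me2 draws malate off to pyruvate, and Got2 exchanges oxaloacetate with aspartate. Pcx stood at 2.71, 2.64, 2.17 and 1.23 CPM in mice a to d, against 2.38, 2.73, 2.93, 2.83 and 1.95 CPM in mice 1 to 5. Mouse d was the lowest and mouse 5 the lowest of its label, and edgeR gave Pcx a log2 fold change of -0.22 (SE 0.26, adjusted p = 0.757), which was 0.0011 without Drp1_WT tubes 11 to 15. Me2 was 33.2 times Pcx per kb of merged exons (23.7 to 53.4 times over the 9 mice), 79.5 times by the longest coding transcript and 101 times by coding length. Me2 stood at 120.1, 97.5, 127 and 100.3 CPM in mice a to d, against 174, 115, 106, 143 and 109 CPM in mice 1 to 5. As for Cs and Dlst, mice 1 and 4 were the highest, and the log2 fold change was -0.22 (SE 0.16, edgeR adjusted p = 0.619), or -0.087 without mouse 1. Got2 averaged 37.0 ± 4.99 CPM under the Drp1_KO label and 37.5 ± 4.59 CPM under the Drp1_WT label (SD, n = 4 and 5), with an edgeR adjusted p of 0.965.

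For several genes the mice of one label lay further apart than the means of the labels. Over the 26 genes with a mean above 5 CPM, mouse 1 was the highest of the 9 in 8 genes and mouse d the lowest in 7. Relative to the mean of the 9 mice on the log2(CPM + 1) scale, mouse d lay at -0.75 for Ogdh, -0.61 for Dlst and -0.37 for Cs, but at 0.48 for Mpc2 and 0.44 for Idh3g. Mouse 1 lay at 0.55 for Dlst, 0.54 for Me2 and 0.39 for Cs, and at -0.26 for Mpc2 and -0.32 for Idh3g. The means of detected genes were 13435 in mouse d and 14038 in mouse 1, and the mitochondrial genome took 0.380% and 0.166% of their counts. The part of these measures in the differences between mice was not tested.

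**Figure D4:**
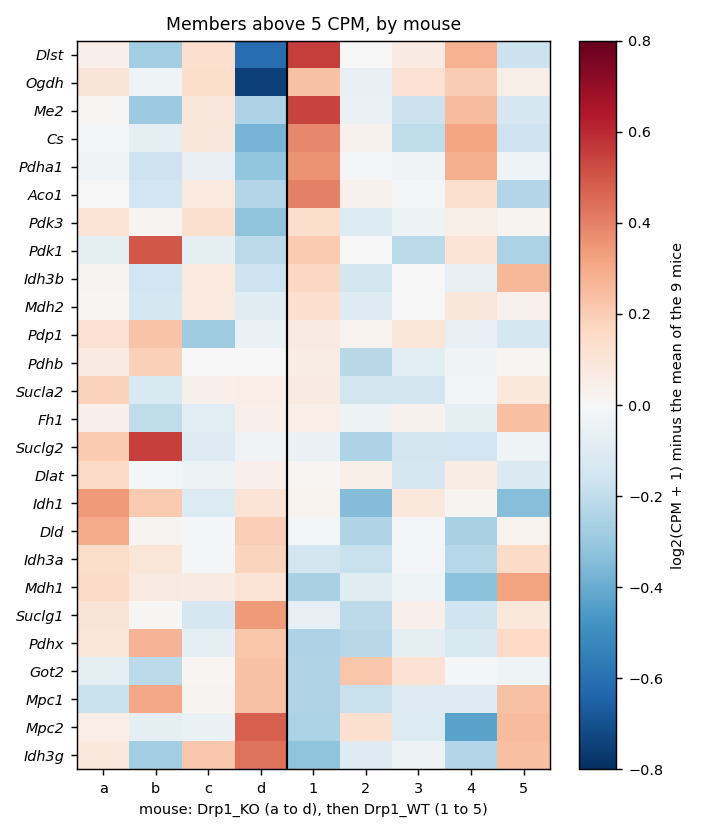
Deviation of each mouse from the mean of the 9 mice, in log2(CPM + 1), for the 26 genes above 5 CPM, with mice a to d (Drp1_KO) left of the line and mice 1 to 5 (Drp1_WT) right of it. Dlst, Ogdh, Me2, Cs and Pdha1 are high in mouse 1 and low in mouse d, from 0.55 to -0.75, and Idh3g and Mpc2 run the other way.

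The spread between single oocytes differed from gene to gene. Over the 35 oocytes other than tube 10, the coefficient of variation of the CPM ran from 9.89% for Idh3a, 9.90% for Pdhx and 10.4% for Fh1 to 32.1% for Dlst and 33.7% for Pdk1. Counting alone would give 2.66% for Idh3a, 4.69% for Dlst and 14.3% for Pdk1. Idh3a ran from 205 to 309 CPM over the 35 oocytes, while Dlst ran from 35.03 to 153 CPM, a 4.36-fold span. The SD of log2 levels among oocytes of one mouse was 0.10 for Idh3a and 0.38 for Dlst.

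Several genes moved together from oocyte to oocyte. Across the 35 oocytes, Pearson's r was 0.89 for Cs and Me2, 0.88 for Dlst and Me2, 0.88 for Pdha1 and Me2, and 0.88 for Pdha1 and Dlst. Mpc2 ran against them, with r of -0.81 to Dlst and -0.71 to Me2. Over all 36 oocytes r was 0.29 for Mpc2 and Dlst and 0.55 for Mpc2 and Me2. The sign of these pairs thus turned on the oocyte left out. The pairs named before them kept theirs. Their r was 0.83 for Cs and Me2, 0.90 for Dlst and Me2, 0.95 for Pdha1 and Me2, and 0.89 for Pdha1 and Dlst. Of 325 pairs over the 35 oocytes, 8 had r above 0.8 and 7 had r under -0.6. These cutoffs differ, and pairs of other genes were not counted. All these r are descriptions over oocytes that share mice, libraries and depth. What follows is again over the 35 oocytes. Dlst had a Spearman's rho of -0.77 with the share of the mitochondrial genome, 0.58 with the number of genes detected and 0.74 with the summed markers of immune, endothelial, stromal and epithelial cells (14 genes, 13 with reads, 31.03 to 77.8 CPM per oocyte, Cdh5 at 0). Mpc2 had a rho of 0.63, -0.35 and -0.55 with the same 3 measures. Most of the summed markers of other cells was Pecam1, at a mean of 37.4 CPM over all mice. The next highest gene of that list, Cd68, averaged 5.30 CPM, and Kdr, endothelial as Pecam1 is, averaged 1.41 CPM. Over the other 25 genes, r with Dlst had a rho of 0.49 with the length of the longest coding transcript. The part of these measures in the co-variation was not tested.

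Tube 10 of mouse b departed from the other 35 oocytes in most of these genes. It lay below all 35 in 17 of the 31 genes, above all 35 in 5 and within their range in 9, where 42.2% of all genes tested lay below and 14.4% above. Mdh2 stood at 9.60 CPM there, against 164 to 286 CPM in the other oocytes, and Fh1 at 16.6 CPM, against 156 to 250.4 CPM. Ogdh and Idh3b had 1 count each, or 0.204 CPM, against at least 14.2 and 15.7 CPM elsewhere. Aco1 had 7 counts, or 1.43 CPM, against 20.6 to 61.9 CPM. The genes above the others were Pdhx at 878 CPM (379 to 567 CPM elsewhere), Suclg2, Mpc1 at 53.7 CPM (12.3 to 29.5 CPM), Pdp1 at 123 CPM (45.4 to 104 CPM) and Pdk1. The 31 genes took 0.203% of its counts, against 0.272% to 0.380% in the other oocytes. Without it their share averaged 0.3499 ± 0.0207% under the Drp1_KO label (SD, n = 4), beside the 0.345 ± 0.0135% under the Drp1_WT label.

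**Figure D5:**
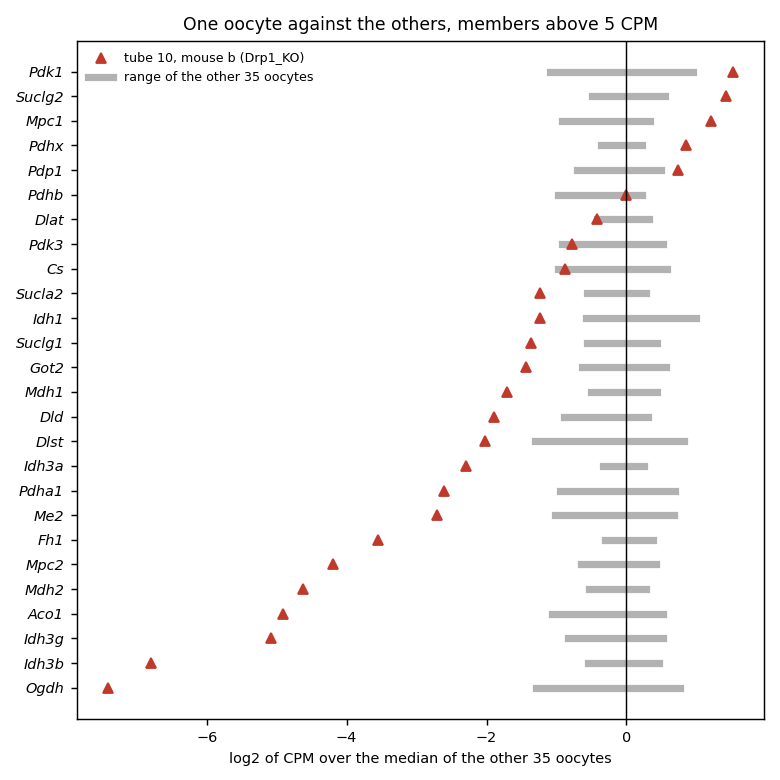
Log2 of the CPM over the median of the other 35 oocytes for the 26 genes above 5 CPM, with triangles for tube 10 of mouse b (Drp1_KO) and bars for the range of the other oocytes. Triangles lie left of the bars for most genes, with Ogdh at 0.00588 times and Mdh2 at 0.0406 times the median, and right of them for Pdk1, Suclg2, Mpc1, Pdhx and Pdp1.

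Genes around the pathway, taken as 4 lists, held no gene that passed the test between the labels. Of the rest of the cycle and its assembly factors, 14 of 15 genes were tested and 0 were called, with a median log2 fold change of 0.03, beside -0.0032 over all genes. Sdhaf4, an assembly factor of succinate dehydrogenase, averaged 187 ± 49.8 CPM under the Drp1_KO label and 138 ± 32.8 CPM under the Drp1_WT label (log2 fold change 0.44, SE 0.19, edgeR unadjusted p = 0.0374, adjusted p = 0.508). Pdha2 (log2 fold change 0.46) and Mrps36 (0.25) had edgeR adjusted p of 0.559 and 0.608, and Sdhd, a membrane anchor of succinate dehydrogenase, was the highest of the list with 302 CPM per kb of merged exons. Of genes that supply pyruvate, 8 of 11 were tested and 0 called, with a median of -0.20. Ldhb, the heart-type subunit of lactate dehydrogenase, stood at 4021 CPM per kb, above every gene of the pathway, while Bsg (-0.24), Pkm (-0.37) and Ldhc (0.36) had edgeR adjusted p of 0.514, 0.557 and 0.617.

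Of carriers and enzymes that shuttle or export the intermediates, 13 of 14 were tested and 0 called, with a median of -0.20. Got1, the cytosolic partner of Got2 in the malate-aspartate shuttle, averaged 45.6 ± 16.9 CPM under the Drp1_KO label and 72.7 ± 12.5 CPM under the Drp1_WT label (SD, n = 4 and 5; log2 fold change -0.67, SE 0.22). Its edgeR unadjusted p was 0.00920 and its adjusted p 0.499, and the mice of the labels overlap. Slc25a13 (-0.30) and Slc25a10 (-0.39) had edgeR adjusted p of 0.537 and 0.606, and the cytosolic malic enzyme Me1 was the highest with 144 CPM per kb. Of genes that make or attach the lipoate and thiamine cofactors, 10 of 11 were tested and 0 called, with a median of 0.04. Nfs1 (-0.22) and Lias (-0.52) had edgeR adjusted p of 0.625 and 0.678, and Glrx5 was the highest with 124 CPM per kb. Of the marker lists, 10 of 17 granulosa genes were tested (median log2 fold change -0.51), 7 of 14 of other cell types (-0.20) and 12 of 12 of the oocyte (-0.04), and edgeR called 0 of them. At an unadjusted p under 0.05 edgeR had Cyp11a1 (-1.70) of the granulosa list and Zp1 (-0.42) of the oocyte list lower. Of the other cell types it had Krt8 (-1.84) and Kdr (-0.97) lower and Cd68 (1.39) higher. Over all genes tested, 4.81% were lower and 4.89% higher at that threshold. Of the 10 granulosa genes tested, 9 were below 0. The exception was Cyp19a1, most of that sum, at 0.24 (edgeR unadjusted p = 0.0534). Pecam1, most of the sum of other cells, stood at -0.02. Cd68 averaged 8.07 ± 5.51 CPM under the Drp1_KO label and 3.08 ± 0.940 CPM under the Drp1_WT label (SD, n = 4 and 5). Every mouse labelled Drp1_KO lay above every mouse labelled Drp1_WT for Cd68 (1.27% of all genes tested). For Ptgs2, too low to be tested, every one lay below, with means of 0.110 and 0.623 CPM (1.29% of all genes tested). These genes were named after their values were seen. Their part in the values of the pathway was not tested.

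RefSeq promoters were matched for 28 of the 31 genes. In the 250 bases before the start, a GC box (GGGCGG on either strand) was found in 19 of the 28 (67.9%), against 32.9% of 27025 genes. A CCAAT box (CCAAT on either strand) was found in 17 (60.7%), against 34.5%. TATAAA was found on either strand in 1 (3.57%), against 13%. GCGCATGC, a core of the NRF1 motif, was found in 0 of the 28, against 2.32%. The median number of CpG was 17.5 in the 28 genes and 6 over all genes, expressed here or not. The part of CpG content in the shares of the motifs was not tested.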

How the data were processed

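Oocytes were snap frozen one by one, SMARTer Ultra Low Input cDNA went into Nextera XT libraries, and an Illumina HiSeq gave single-end reads, per the labels' protocols. Picard, Subread 1.5.2 with featureCounts, STAR and the build GRCm38 are listed in the submitters' processing notes. The authors deposited raw counts for 21968 Ensembl genes in 36 oocytes. Annotation release, strand setting and handling of multiply matching reads: not given in the sources used here. Strand is lost in such libraries, so reads where genes overlap cannot be assigned by strand. How such reads were counted is not given. Cs, Got2, Mpc1 and Pdha1 have close copies elsewhere. No molecular identifiers are named, so intervals and floors cover counting error only.

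Members, lists, ratios and tests were chosen with earlier results of these data known. All 31 members are named. From each of 4 neighbouring lists came the called genes, the 3 smallest p and the highest level. The 3 marker lists are given as counts. Some genes that this rule or the cycle would name are not reported here.

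IDs were matched to GENCODE M21 (21876 of 21968). Counts were summed per mouse and tested with edgeR 4.0.16 (R 4.3.3; TMM factors, its filter on low counts, robust quasi-likelihood test), calling genes under 0.05 after Benjamini-Hochberg adjustment over 12812 genes. The SE of an edgeR log2 fold change was derived as its absolute value over the square root of the F value of the test. Mouse CPM use TMM factors, and oocyte CPM use the oocyte's total. Levels were compared between genes per kb of merged exons. Ratios, of summed counts with 0.5 added to each side, were compared with exact permutation tests over 126 splits (scipy 1.17.1). Alternatives were DESeq2 1.42.0, limma 3.58.1 voom on single oocytes (mouse as random effect), other scaling factors, no filter, the tube set as a term or 1 set alone, doubted libraries left out, each mouse left out, and other gene lengths. The fit was tested on simulated data from the real means and library sizes, where 11 of 170 calls were false. Depth is the total count per oocyte.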

Additional observations from a re-analysis of the deposited data

Results flagged for a closer look

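In groups of 4 or 5 mice, 4 values stood apart from the others of their label by Dixon's test at the 95% level, among 76 groups tested, where chance flags about 1 group in 20. The level of Pdk1 was 14.3 CPM in mouse b, labelled Drp1_KO, against 8.41 to 9.34 CPM in the other 3 mice of that label. This mouse includes tube 10, which held 26.8 CPM. Mpc1 was 27.2 CPM in mouse 5, labelled Drp1_WT, against 19.3 to 21.4 CPM in the other 4. Mouse d, the only other mouse in tubes 27 to 30, held 27.3 CPM under the Drp1_KO label. Pdk4 was 0.263 CPM in mouse 3 and at 0 in the other 4 mice labelled Drp1_WT, which rests on 8 counts in 3 oocytes. The log2 ratio of Sucla2 over Suclg2 was 2.14 in mouse 3, against 2.24 to 2.26 in the other 4 mice labelled Drp1_WT.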

How the results depend on the processing

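No paired analysis was possible because the mice of the 2 labels carry letters or numbers that are not shared. Over all alternatives 0 of the genes were called, and the lowest adjusted p was 0.269, for Suclg2 without mouse c. Of 570 log2 fold changes under alternatives, 549 kept their sign, and 22 of the 30 genes kept it throughout. The causes of the reversals below were not tested. With total counts alone, which moved the median of all genes to -0.09 on the log2 scale, the values were -0.024 for Dlat, -0.076 for Pdp1 and -0.011 for Sucla2. Without tube 10 they were -0.032 for Pdk1 and -0.048 for Pdp1. Without Drp1_WT tubes 11 to 15 the value of Pcx was 0.0011. Without all doubted libraries they were -0.026 for Mpc1, 0.021 for Pdk3 and -0.057 for Pdp1, and in tubes 1 to 15 alone 0.077 for Pdk3. With each mouse left out, Pdk1 ran from -0.11 to 0.18, Pdk3 from -0.063 to 0.072, Pdp1 from -0.065 to 0.11 and Got2 from -0.11 to 0.046.

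Of the ratios, Mpc2 over Mpc1 differed by -0.083 as a mean of oocyte ratios, -0.079 without Drp1_WT tubes 11 to 15 and -0.071 in tubes 1 to 15, and ran from -0.077 to 0.14 with each mouse left out. Pdk1 over Pdk3 differed by -0.0026 without tube 10 and ran from -0.058 to 0.18. The kinases over the phosphatases differed by 0.027 without tube 10, 0.020 without Drp1_WT tubes 11 to 15, 0.090 without all doubted libraries and 0.094 in tubes 1 to 15, and ran from -0.15 to 0.065. Pdp1 over Pdp2 kept its sign throughout, from 0.66 without mouse 4 to 0.93 without all doubted libraries. Its 2 labels no longer separated as a mean of oocyte ratios (0.75). Of the levels per length over all alternatives, 55 moved by more than their spread, with other gene lengths, and 69 did not.

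Depth limits Pdk2, Pdk4, Pdp2 and Idh2, which had a few reads or none per oocyte. The label of the 5 libraries with low Dnm1l, the annotation used for counting and the unknown handling of reads in overlapping genes or close copies limit the rest.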
